A study of Mus musculus with 19 samples.

Results

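The MHC class I presentation genes are a set of 9 genes that make, load and switch on the molecule with which nucleated cells show peptides to CD8 T cells. They were the heavy chains H2-K1 and H2-D1, their partner chain B2m, the transporter genes Tap1 and Tap2, the loading factor Tapbp, the immunoproteasome subunits Psmb8 and Psmb9, and the transactivator Nlrc5. All 9 were found by symbol among the 46078 genes of the deposited table and were measured in all 19 RNA-seq libraries, so none was lost to a filter on low values. The study asked what mutant p53 in stromal fibroblasts does to mammary tumors driven by ERBB2, with MMTV-neu supplying ERBB2 in the mammary epithelium and Fsp-Cre supplying Cre in fibroblasts. MG-NP glands (4) and T-NP tumors (4) came from MMTV-neu;p53wm-R172H/+;Fsp-Cre mice, in which Cre converts the conditional p53 allele into p53R172H. T-N tumors (4) came from MMTV-neu;Fsp-Cre mice. The MG-N glands (4) were of mixed genotype, with replicate 1 from MMTV-neu;Fsp-Cre and replicates 2 to 4 from MMTV-neu;p53wm-R172H/+, and neither genotype makes the mutant protein. MG-WT glands (3) came from wild type mice of matched age, with no strain given. The MG-N and MG-NP glands carry MMTV-neu like the tumors and are lesion-free glands of tumor-bearing mice. The transgenic mice were of mixed FVB, C57BL/6 and BALB/c background, which matters for H2 genes because these strains carry different H2 haplotypes.

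A class I molecule is a heavy chain folded with beta-2-microglobulin around a short peptide. Peptides are cut by the proteasome, in which Psmb8, Psmb9 and Psmb10 replace the constitutive subunits Psmb5, Psmb6 and Psmb7 after interferon exposure, are carried into the endoplasmic reticulum by the Tap1 and Tap2 transporter, and are loaded with help from tapasin, the product of Tapbp. Nlrc5 is recruited to the promoters of these genes and raises their transcription, as Ciita does for class II genes. Interferons act through factors such as Irf9 and Irf1 on the same genes, and leukocytes carry much more class I than most other cells.

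Of the 9 genes, 7 lie on mouse chromosome 17 in the H2 region (GRCm38): H2-K1 at chr17:33996017-34000347 on the minus strand, Tapbp at chr17:33915899-33929292, Psmb9 at chr17:34181987-34187764 on the minus strand, Tap1 at chr17:34187553-34197225, Psmb8 at chr17:34197721-34201454, Tap2 at chr17:34203527-34216321 and H2-D1 at chr17:35262730-35267499. B2m lies at chr2:122147686-122153083 and Nlrc5 at chr8:94434356-94527272. Psmb9 and Tap1 face away from each other, with 225 bases between their RefSeq starts. In the GENCODE annotation, which reaches further, their 5′ ends overlap by 212 bases on opposite strands. Tapbp shares 3422 bases with Zbtb22 on the same strand, and reads in that stretch cannot be told apart (Zbtb22 had a median of 847.8 normalized counts).

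Promoter windows of 300 bases (250 before and 50 after the RefSeq start, GRCm38.p6) were at hand for 7 of the 9 genes, and Tap2 and Nlrc5 had none. The stretch before the H2-K1 start is shown because it holds, in order, the elements through which class I genes are known to be switched on. It covers chr17:34000359-34000488 on the minus strand. Capitals mark, from left to right, a match to the NF-kappaB consensus, an interferon regulatory factor element written as GAANNGAAA on the opposite strand, a cyclic AMP response core (TGACG) and a Y box core (ATTGG).
H2-K1: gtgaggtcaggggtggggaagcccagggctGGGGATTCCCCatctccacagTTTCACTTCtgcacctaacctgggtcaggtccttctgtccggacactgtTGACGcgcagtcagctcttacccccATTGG
Over 130 bases aligned without gaps, H2-K1 and H2-D1 shared 119 bases (91.5%), with an identical run of 47 bases. The 2 elements closest to the 5′ end were identical in the 2 heavy chain genes. The stretch of 30 bases that holds them differed at 1 base, between the elements (chr17:34000429-34000458, minus strand, and chr17:35262923-35262952, plus strand).
H2-K1, NF-kappaB and interferon elements: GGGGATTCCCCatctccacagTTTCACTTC
H2-D1, NF-kappaB and interferon elements: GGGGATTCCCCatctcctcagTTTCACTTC
The window of B2m, on another chromosome, held the same kinds of element, with the interferon element before the NF-kappaB match (chr2:122147527-122147685, plus strand). Capitals there mark a TATAAA match on the opposite strand, an interferon element in its other spacing (GAAANNGAA), the NF-kappaB consensus, TGACG and ATTGG.
B2m: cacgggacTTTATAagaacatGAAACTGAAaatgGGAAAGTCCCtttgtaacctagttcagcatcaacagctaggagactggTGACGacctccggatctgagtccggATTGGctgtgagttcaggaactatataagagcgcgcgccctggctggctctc
Searched on both strands, ATTGG was found in 6 of the 7 windows (all but Psmb8) against 37.4% of 32851 RefSeq windows, and TGACG in 5 of 7 (all but Psmb8 and Tapbp) against 20.8%. The windows of Psmb9 (chr17:34187281-34187580) and Tap1 (chr17:34187306-34187605) overlap. Their ATTGG is the same site, as is their TGACG, so each is counted in both windows. H2-K1 and H2-D1 are also near copies here, so the 7 windows are not independent. The NF-kappaB consensus was found in 3 of 7 windows (H2-K1, H2-D1 and B2m) against 8.46%. GAANNGAAA was found in 2 (H2-K1 and H2-D1) against 7.52%, and GAAANNGAA in 1 (B2m) against 8.56%. The form GAANNGAAA was added after the sequences were seen. A gamma-activated site written TTCNNNGAA was found in 1 window (Psmb8) against 8.30%, and TATAAA in 4 (B2m, H2-D1, H2-K1 and Psmb8) against 13.6%. These matches describe the letters only, since no binding was measured.

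Sequencing depth was 20899152 to 27262440 reads per library in the tumors and the MG-N and MG-NP glands, and 54677315 to 62645459 in MG-WT, so depth and the MG-WT group cannot be told apart. Luminal epithelial markers were present in every group, and the summed level of 9 of them was 12626 to 37672 normalized counts in MG-N and MG-NP glands, 126676 to 148022 in MG-WT and 99174 to 185524 in tumors. MG-N and MG-NP glands carried 148248 to 411034 counts of 9 white adipocyte markers, against 4003 to 5441 in MG-WT and at most 9156 in tumors. Skeletal muscle transcripts made up 0.131% to 19.7% of all counts in MG-NP glands, highest in replicates 2 and 4, against at most 0.204% in the other groups. The samples of a group are described as biological replicates. T-NP replicates 1 and 2, however, have library names that share a number, so they may come from 1 mouse, and p-values measure the spread between these samples.

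The class I genes were expressed strongly in every library and together made up 0.1255% to 0.387% of all normalized counts. Per kilobase of exon, B2m was the highest of the 9 (group means of 13521 to 28931 normalized counts per kilobase), followed by H2-D1 (6479 to 10779) and H2-K1 (4530 to 5579). Nlrc5 and Psmb9 were the lowest (66.3 to 302.8 and 118.3 to 263.8). For each of the 9 genes, the values of every 2 groups next to each other in the order of group means overlapped. The widest fall along that order was in Nlrc5, from MG-N, MG-WT and MG-NP to T-N and then T-NP.

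**Figure D1:**
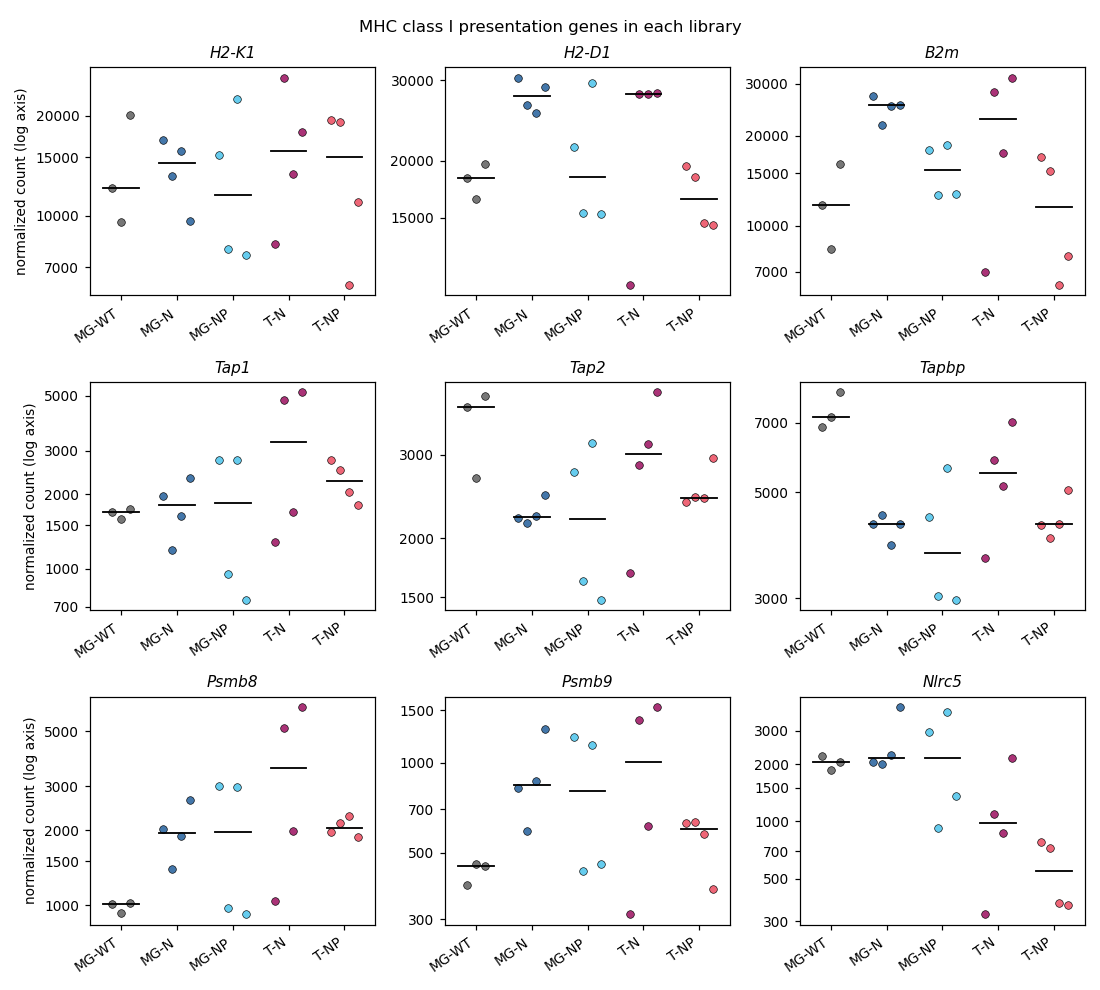
Normalized counts (log axis) of the 9 class I genes in each of the 19 libraries by group (points, with the group median as a bar). The median of Nlrc5 is lowest in T-NP, where all 4 tumors are at 781.4 or less and below every gland. T-N overlaps the glands for Nlrc5, and the other genes overlap between glands and tumors.

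The comparison of tumors with glands of the same N or NP label asks whether class I genes differ once tumors form. Of the MG-N glands, only replicate 1 shares the T-N genotype, so tissue and genotype are mixed in T-N against MG-N. Only Nlrc5 was called, lower in both comparisons. In MG-N glands Nlrc5 had 2049, 2014, 2238 and 3986 normalized counts (replicates 1 to 4), and in T-N tumors 326.1, 1098, 870.5 and 2151. Of the T-N tumors, 3 lay below every MG-N gland, and replicate 4 lay within their range. The fold change was 0.368 (log2 -1.44 ± 0.51, SE, adjusted p = 0.0423, limma), and 1 of 9 class I genes was called lower against a background of 22.3% of 17950 genes. A call needed an adjusted p under 0.05 and at least a 2-fold change. This call sat at the threshold. It was lost with edgeR (adjusted p = 0.0737) and when any 1 of 7 libraries was left out: MG-N replicate 1 (0.066), 2 (0.0653), 3 (0.0732) or 4 (0.11), or T-N replicate 1 (0.0559), 2 (0.06) or 3 (0.0752), each with limma. It stood without T-N replicate 4, at log2 -1.86 with an adjusted p of 0.0114.

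In MG-NP glands Nlrc5 had 2961, 920.7, 3744 and 1366 normalized counts, and in T-NP tumors 781.4, 728.3, 375.4 and 365.8. The groups did not overlap. The fold change was 0.274 (log2 -1.87 ± 0.47, SE, adjusted p = 0.0095, limma), and the exact two-sided permutation test of this gene gave p = 0.0286, the smallest that 4 against 4 allows (adjusted over 72 tests, 0.229). Again 1 of 9 class I genes was called lower, against a background of 24.0% of 17880 genes, and this call was kept under each of the 20 alternatives run, with log2 values from -3.58 to -1.55. Averaging T-NP replicates 1 and 2 into 1 sample gave -2.04 (adjusted p = 0.0146).

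Ptprc and most T and NK cell markers were lower in the tumors, as Nlrc5 was, while the summed leukocyte level overlapped between tumors and glands. Ptprc, the pan-leukocyte marker CD45, fell by 2.21 on the log2 scale in T-N and by 2.46 in T-NP (adjusted p = 0.00196 and 0.0155, limma). Cd3e, a chain of the T cell receptor complex, had 51.39 to 510.3 normalized counts in MG-N and MG-NP glands and 2.242 to 19.52 in tumors. Of 15 T and NK cell markers, 14 were called lower in T-N and 13 in T-NP, and none higher. Their summed level was 739.4 to 9326 in MG-N and MG-NP glands and 126.7 to 513.0 in tumors, with no marker at 0 in every library of a group. Of 10 leukocyte markers, 9 were called lower in T-N and 4 in T-NP, while Lcp1 was called higher in both. The summed leukocyte level was 6964 to 50739 in MG-N and MG-NP glands and 14480 to 23492 in tumors. MG-NP replicates 2 and 4 had 6964 and 10262, below every tumor, although their Nlrc5 lay above every T-NP tumor. Adgre1, the macrophage marker F4/80, was not called in either comparison (log2 -0.74, adjusted p = 0.0432, and -0.20, adjusted p = 0.522). Other marker sums also separated tumors from glands: those of 9 endothelial markers were 18948 to 39241 in MG-N and MG-NP glands and 4117 to 7446 in tumors, and those of 8 basal epithelial markers 9256 to 23968 and 1348 to 5056. The sum of 10 macrophage markers was 9379 to 21391 in T-N, below the 21792 to 58389 of MG-N, and overlapped between T-NP and MG-NP. In bulk RNA, fewer cells of a type and less RNA per cell cannot be told apart, and the part of leukocytes in the Nlrc5 difference was not tested.

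The heavy chains and B2m differed between tumors and glands by less than the spread between samples. H2-K1 had 16929, 13156, 15712 and 9678 normalized counts in MG-N and 8234, 26053, 13419 and 17863 in T-N (log2 0.15, 95% interval -0.63 to 0.94, adjusted p = 0.735, limma). In MG-NP it had 15230, 7938, 22427 and 7639, and in T-NP 19484, 19135, 6193 and 10989 (log2 0.07, -0.98 to 1.13, adjusted p = 0.903). Gland and tumor ranges overlapped in both comparisons. H2-D1 had 30371, 26481, 25368 and 28976 in MG-N and 10674, 27929, 28060 and 28128 in T-N (log2 -0.33, -1.06 to 0.40), so that T-N replicate 1 alone lay below the glands. In MG-NP H2-D1 had 21423, 15390, 29530 and 15312, and in T-NP 19430, 18403, 14567 and 14437 (log2 -0.25, -0.79 to 0.30). B2m had 27159, 21699, 25299 and 25365 in MG-N and 7008, 28051, 17528 and 31351 in T-N (log2 -0.45, -1.43 to 0.53). It had 17953, 12719, 18590 and 12785 in MG-NP and 17025, 15285, 6320 and 7883 in T-NP (log2 -0.52, -1.28 to 0.25). The intervals for B2m in both comparisons include a 2-fold fall.

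The transporter, tapasin and immunoproteasome genes also gave no call. Tap1 had 1969, 1185, 1639 and 2318 normalized counts in MG-N and 1283, 4792, 1691 and 5159 in T-N (log2 0.65, -0.41 to 1.71), with tumor replicates 2 and 4 above every gland and replicates 1 and 3 among them. In MG-NP it had 2739, 949.2, 2750 and 749.0, and in T-NP 2742, 2496, 2034 and 1810 (log2 0.56, -0.43 to 1.55). Psmb8 had 2023, 1400, 1888 and 2633 in MG-N and 1043, 5135, 1978 and 6250 in T-N (log2 0.56, -0.65 to 1.77). The same 2 tumors were again the highest. Psmb8 had 3006, 974.9, 2974 and 919.4 in MG-NP and 1962, 2130, 2282 and 1879 in T-NP (log2 0.29, -0.64 to 1.22), the narrowest group beside MG-WT. Psmb9 had log2 changes of -0.10 in T-N and -0.42 in T-NP, Tap2 of 0.31 and 0.25, and Tapbp of 0.32 and 0.18, all with adjusted p of 0.2 or more. Over the 9 genes the median log2 change was 0.15 in T-N and 0.07 in T-NP, against -0.05 and -0.07 over all genes tested.

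Leaving out MG-NP replicates 2 and 4 together, the glands with the most skeletal muscle RNA, raised the number of class I genes called in T-NP against MG-NP to 2, with Psmb9 lower (log2 -1.12, adjusted p = 0.00631, limma) beside Nlrc5. Over all genes, the fit without these 2 glands called 2515 higher and 4556 lower. With the mean log2 level of 20 muscle genes as a covariate, 5 class I genes were called, all lower: Nlrc5, H2-K1, H2-D1, B2m and Psmb9. H2-K1 then turned from 0.07 to -1.53 (adjusted p = 0.0447). Over all genes, the covariate fit called 1662 higher and 2674 lower. The summed muscle level was 30483 to 6749933 in MG-NP and 710.8 to 12945 in T-NP. These ranges do not overlap, so the covariate fit sets the groups against each other at muscle levels not seen in both.

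**Figure D2:**
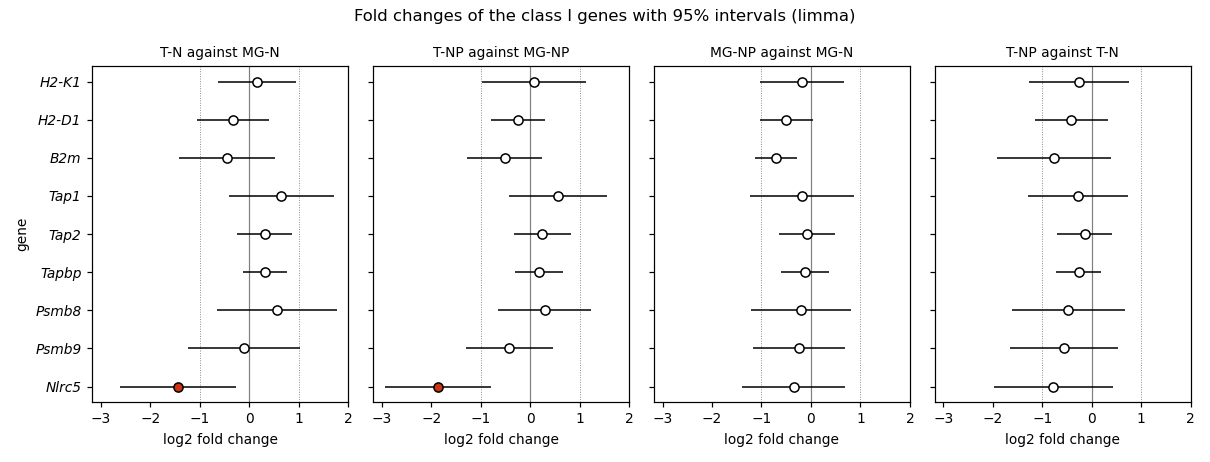
Log2 fold changes of the 9 class I genes (points) with 95% intervals (lines) from limma for the 2 tumor against gland comparisons and the 2 comparisons of genotype, with filled points for calls and dotted lines at a 2-fold change. Nlrc5 alone is filled, at -1.44 in T-N and -1.87 in T-NP.

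The genes moved together from library to library within groups. In MG-NP, replicates 1 and 3 were the 2 highest libraries for all 9 genes, with Tap1 at 2739 and 2750 against 949.2 and 749.0 in replicates 2 and 4. In T-N, replicate 1 was the lowest for all 9 genes, and replicate 4 the highest for 8, all but H2-K1. In T-NP no library was the highest for more than 5 of the 9. After the group means were removed, Tap1 and Psmb8 were the most alike pair across the 19 libraries (Pearson r = 0.966) and B2m and Tapbp the least (0.584). Each gene was correlated with the mean of the other 8 at 0.737 (H2-K1) to 0.925 (Tap1). These libraries share scaling and tissue composition, and the correlations are descriptions.

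Class I levels were set beside Ptprc and interferon factors within groups. In MG-NP and MG-N glands, the libraries highest in class I were high in Ptprc: 15527 and 14320 normalized counts in MG-NP replicates 1 and 3 against 1789 and 2601 in replicates 2 and 4, and 13006 in MG-N replicate 4 against 3420 to 6807 in the other MG-N glands. In MG-WT, replicate 2 had the highest Ptprc (3797) and the lowest value of 7 of the 9 genes, and replicate 3, highest for 7 of the 9, had 3355. Across the 11 glands, with group means removed, the mean of the 9 genes followed Ptprc at r = 0.911 (Spearman 0.891, and r = 0.857 without the 2 glands farthest from the median), Irf1 at 0.91 (Spearman 0.8, and 0.86) and Irf9 at 0.618 (Spearman 0.673, and 0.3). In the 8 tumors the values for Ptprc were -0.407 (Spearman -0.476, and 0.135 without the 2 farthest). Those for Irf1 were 0.318 (Spearman 0.262, and 0.363), and those for Irf9, a subunit of the factor that type I interferons activate, 0.818 (Spearman 0.786, and 0.642). T-N replicates 2 and 4, the highest in Tap1 and Psmb8, had 4868 and 4651 counts of Irf9 against 2171 and 2022 in replicates 1 and 3. Their Ptprc was 1311 and 980.4 against 1249 and 1689. Muscle RNA differed as well, being highest in the 2 MG-NP glands with low class I levels. Whether the relations differ between glands and tumors was not tested.

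**Figure D3:**
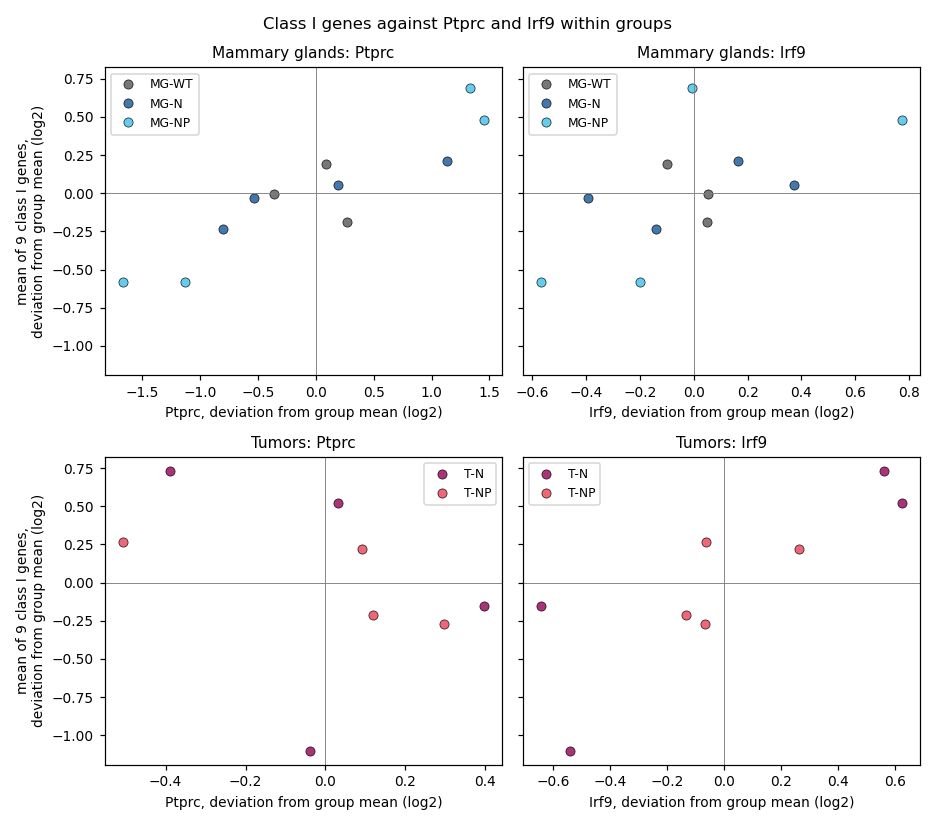
Mean log2 deviation of the 9 class I genes from their group mean against that of Ptprc (left) and Irf9 (right), in 11 glands (top) and 8 tumors (bottom), 1 point per library. In glands r is 0.911 for Ptprc and 0.618 for Irf9, and in tumors -0.407 for Ptprc and 0.818 for Irf9.

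The comparison of genotypes within a tissue addresses what fibroblast p53R172H does to these genes. None was called in MG-NP against MG-N, where 0 of 18563 genes passed (background 0%), or in T-NP against T-N, where 7 of 16638 passed (background 0.0421%). At an unadjusted p under 0.05, the class I genes numbered 1 in glands (B2m) and 0 in tumors, and edgeR and DESeq2 called 0 in both. Over all genes edgeR called 0 in both, whereas DESeq2 called 404 higher and 115 lower in glands (background 2.92% of 17747) and 51 higher and 34 lower in tumors (background 0.515% of 16517). All 9 estimates were negative in both comparisons, but the 9 genes move together between libraries and are not independent. The signs also depended on the processing. In glands, every gene but B2m had a positive estimate under at least 1 of 19 alternatives. Tap1 ranged from -0.466 to 0.962 there, and Nlrc5 from -0.668 to 0.962. In tumors, H2-K1, Tap1 and Tap2 turned positive under 1 or 2 of 18 alternatives. B2m gave log2 -0.70 in glands (95% interval -1.12 to -0.28, adjusted p = 0.327, limma), with the 4 MG-NP values below all 4 MG-N values. The exact two-sided permutation test gave p = 0.0286, which was 0.229 after adjustment over 72 tests. In tumors B2m gave -0.76 (-1.92 to 0.39) and Nlrc5 -0.77 (-1.98 to 0.44). The interaction of tissue and genotype, which asks whether the tumor-gland difference depends on genotype, was not called for any of the 9 genes or of 19367 genes (background 0%), by limma. None of the 9 had an unadjusted p under 0.05, and edgeR and DESeq2 called 0 of the 9. Over all genes edgeR called 0 and DESeq2 83 higher and 285 lower (background 2.03% of 18157). For Nlrc5 it was -0.42 with an interval of -2.02 to 1.17, which spans a 2-fold difference either way.

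Against wild type glands, B2m alone was called in MG-N. It had 11775, 8318 and 16096 normalized counts in MG-WT, all below the lowest MG-N gland (21699), and rose 2.13-fold (log2 1.09 ± 0.22, SE, adjusted p = 0.00296, limma). This was 1 of 9 called higher, against a background of 19.1%, and 0 of 9 were called lower. Without MG-WT replicate 2 its log2 change was 0.85 (adjusted p = 0.00733), under the 2-fold threshold. At any fold, 6 of the 9 had an adjusted p under 0.05, a share near the 59.1% of all genes. Beside B2m these were H2-D1 (log2 0.61), Psmb8 (0.98), Psmb9 (0.99), Tap2 (-0.60) and Tapbp (-0.80), all under 2-fold, while H2-K1 (0.03), Tap1 (0.05) and Nlrc5 (0.28) had an adjusted p over 0.05. Tapbp had 6853, 7185 and 8095 in MG-WT and 4287, 4472, 3884 and 4297 in MG-N, with no overlap. Psmb8 had 1006, 929.3 and 1019 in MG-WT, also with no overlap, and Psmb9 had 391.1, 457.4 and 450.0 against 822.8, 593.0, 867.7 and 1301. Psmb8 and Psmb9 lay just under 2-fold, and both passed with DESeq2, without MG-WT replicate 3 and without MG-N replicate 2 (log2 1.13 and 1.17 in the last). Psmb9 also passed with edgeR (1.03), without MG-WT replicate 2 (1.04) and without MG-N replicate 1 (1.02).

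In MG-NP against MG-WT none of the 9 was called (background 32.6%), by limma, edgeR or DESeq2. At any fold 1 had an adjusted p under 0.05, Tapbp (log2 -0.92, adjusted p = 0.0177, limma), against 46.4% of all genes, and the same 1 had an unadjusted p under 0.05. Its MG-NP values of 4442, 3028, 5631 and 2980 all lay below MG-WT. Without MG-NP replicate 3 it passed the 2-fold threshold (-1.10, adjusted p = 0.00444). Without replicates 2 and 4 together, Psmb8 (1.60) and Psmb9 (1.45) were called higher. With the muscle covariate H2-D1, Psmb8, Psmb9 and Nlrc5 were called higher, and Nlrc5 turned from -0.07 to 2.34 (adjusted p = 0.0459). Over all genes, the fit without the 2 glands called 3599 higher and 3109 lower, and the covariate fit 948 and 1304. The summed muscle level was 1113 to 1937 in MG-WT, below the 30483 to 6749933 of MG-NP. The covariate fit thus compares these groups at muscle levels not seen in both.

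In T-N against MG-WT none of the 9 was called by limma (background 42.5%), 1 with an unadjusted p under 0.05. Psmb8 came nearest, at log2 1.54 (95% interval 0.19 to 2.88, adjusted p = 0.0525), and was called with edgeR (1.92) and DESeq2 (1.90). DESeq2 also called Psmb9 (1.19). Without T-N replicate 1, Psmb8 (2.02), Psmb9 (1.34) and B2m (1.10) were called higher, and without T-N replicate 4, Nlrc5 was called lower (-1.58, adjusted p = 0.0217, limma). In T-NP against MG-WT, Psmb8 was called higher (2.09-fold, log2 1.06 ± 0.11, SE, adjusted p = 4.7e-05, limma) against a background of 19.8%. Nlrc5 was called lower against a background of 28.0%: the MG-WT glands had 2196, 1861 and 2058 normalized counts, all above the highest T-NP tumor (781.4), and the fold change was 0.26 (log2 -1.94 ± 0.29, SE, adjusted p = 0.000392). At any fold 5 of 9 had an adjusted p under 0.05, against 69.7% of all genes, namely these 2, Tap1 (0.42), Tap2 (-0.43) and Tapbp (-0.74). In a single fit of all 5 groups Psmb8 had an adjusted p of 0.0851. The comparisons with MG-WT share the same 3 glands.

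Ratios within a library compare genes that are made or used together and do not depend on scaling. Across 6 ratios and 8 comparisons (48 exact two-sided permutation tests), none had an adjusted p under 0.05. The smallest unadjusted p was 0.0286, which is also the smallest that 4 against 4 or 4 against 3 allows, and its adjusted value was 0.229. Psmb10 relative to its constitutive counterpart Psmb7 was the one subunit ratio whose T-N and MG-N groups did not overlap, at log2 -2.11 ± 0.20 (SD, n = 4) in T-N and -1.28 ± 0.32 (SD, n = 4) in MG-N, a 0.562-fold ratio. Psmb9 relative to Psmb6 was -2.23 ± 0.95 in T-N and -1.21 ± 0.46 in MG-N, and -2.97 ± 0.63 in T-NP and -1.63 ± 1.03 in MG-NP (SD, n = 4 each), with overlap in both. Psmb8 relative to Psmb5 was 0.407 ± 0.196 in T-NP (SD, n = 4) and 1.14 ± 0.31 in MG-WT (SD, n = 3), with no overlap, although Psmb8 itself was higher in T-NP. The constitutive subunit rose more, with Psmb5 at log2 1.80 in T-NP against MG-WT (adjusted p = 4.02e-05, limma). Psmb9 over Psmb6 (means -2.97 and -1.73) and Psmb10 over Psmb7 (-2.11 and -1.42) also did not overlap between T-NP and MG-WT. Neither did Psmb10 over Psmb7 between T-N and MG-WT.

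H2-K1 relative to B2m was lower in every MG-N gland (-0.682, -0.722, -0.687 and -1.39) than in every MG-WT gland (0.048, 0.202 and 0.327). In T-NP it was 0.195, 0.324, -0.029 and 0.479. H2-D1 relative to B2m also did not overlap between MG-N (0.161 ± 0.118, SD, n = 4) and MG-WT (0.638 ± 0.346, SD, n = 3). B2m, the divisor of both ratios, was itself called higher in MG-N against MG-WT. The balance of the 2 heavy chains ranged, as log2 of H2-K1 over H2-D1, from -1.58 in MG-N replicate 4 to 0.056 in T-NP replicate 2, and did not separate any groups compared.

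**Figure D4:**
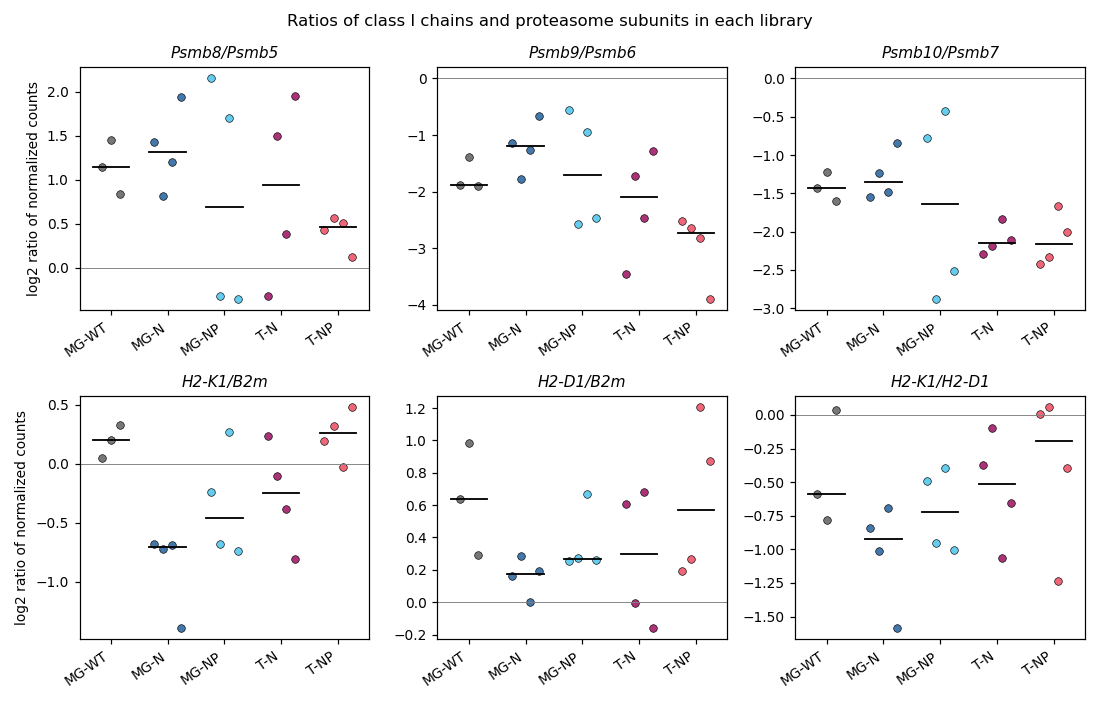
Log2 ratios of normalized counts in each library by group (points, with the median as a bar) for 3 immunoproteasome subunits over their constitutive counterparts and for the class I chains. Psmb10 over Psmb7 is lower in all 4 T-N tumors than in all 4 MG-N glands, and the spread of Psmb8 over Psmb5 is narrowest in T-NP.

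Other genes of the class I pathway, taken from lists set for this work, were read beside the 9. Over all genes tested, 12.8% were called higher in T-N against MG-N and 14.7% in T-NP against MG-NP, beside the 22.3% and 24.0% called lower. Of 15 peptide loading and trimming genes, 3 were called higher and 1 lower in both tumor comparisons. The higher ones were the chaperones Hspa5 (log2 1.55 in T-N and 1.52 in T-NP), Calr (1.35 and 1.42) and Pdia3 (1.32 and 1.38), which also fold many other proteins in the endoplasmic reticulum. The lower one was the aminopeptidase Lnpep (-1.04 and -1.27). Of 14 constitutive proteasome genes, 3 were called higher in T-N and 0 in T-NP by limma, none lower, and the median log2 change was 0.70 and 0.79. The 2 largest in T-N were Psma5 (1.10) and Psmb4 (1.04).

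Of 16 further class I heavy chain genes tested, 1 was called higher and 4 lower in T-N, and 2 higher and 3 lower in T-NP. H2-T23, which encodes the nonclassical chain Qa-1, was higher in both tumor groups. It had 4075, 2181, 2888 and 4123 normalized counts in MG-N and 8427, 9757, 5724 and 9680 in T-N, with no overlap (log2 1.36, adjusted p = 0.00259, limma). In T-NP it had 11597, 11184, 4284 and 11113 against 4283, 2065, 4449 and 1612 in MG-NP, with replicate 3 among the glands (log2 1.65, adjusted p = 0.0111). Among the called genes, the 2 largest changes in T-N were in H2-M2 (-3.50) and Fcgrt (-3.11), and in T-NP in H2-Q10 (-3.19) and Fcgrt (-2.13). Fcgrt encodes the neonatal Fc receptor, which does not present peptides.

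Of 21 transcription regulators of class I and class II genes, 2 were called in T-N, with Irf9 higher (log2 1.21) and Ciita, the class II counterpart of Nlrc5, lower (-1.80). In T-NP 4 were called, with Irf9 higher (1.38), and Ciita (-1.72), Irf2 (-1.14) and Relb (-1.07) lower. Of the interferon ligands and receptors, 9 could be tested, and Ifngr1, a chain of the interferon-gamma receptor, was called lower in both (-1.67 and -1.54). Ptpn2 was called higher (1.54) and Jak1 lower (-1.29) in T-N, and Socs1 lower (-1.41) in T-NP. Of 25 interferon-stimulated genes, 0 were called higher and 2 lower in T-N by limma, and 13 higher and 2 lower in T-NP, where 14.7% of all genes were called higher. The 2 lower, Gbp4 (-2.86 and -2.80) and Cxcl9 (-1.93 and -2.52), were the same in both. The largest called in T-NP beside Gbp4 was Ifi44 (2.71). The median log2 change of the 25 was 0.91 in T-N and 1.22 in T-NP. The difference between the genotypes was not called for any of the 25 (interaction, limma). The T-N tumors were split: the summed level of the 25 was 9809, 69158, 20548 and 71661 in replicates 1 to 4. It was 12652 to 27826 in MG-N, 7598 to 20765 in MG-NP and 20704 to 25421 in T-NP. Of the CD8 T cell and NK ligands and receptors, 8 of 12 tested were called lower in T-N and 7 of 11 in T-NP, and 1 higher in both, the ligand gene Ulbp1 (1.75 and 1.94). Klrd1 (-3.63) and Cd8a (-3.55) had the largest called changes in T-N, and Cd8b1 (-3.94) and Cd8a (-3.43) in T-NP.

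**Figure D5:**
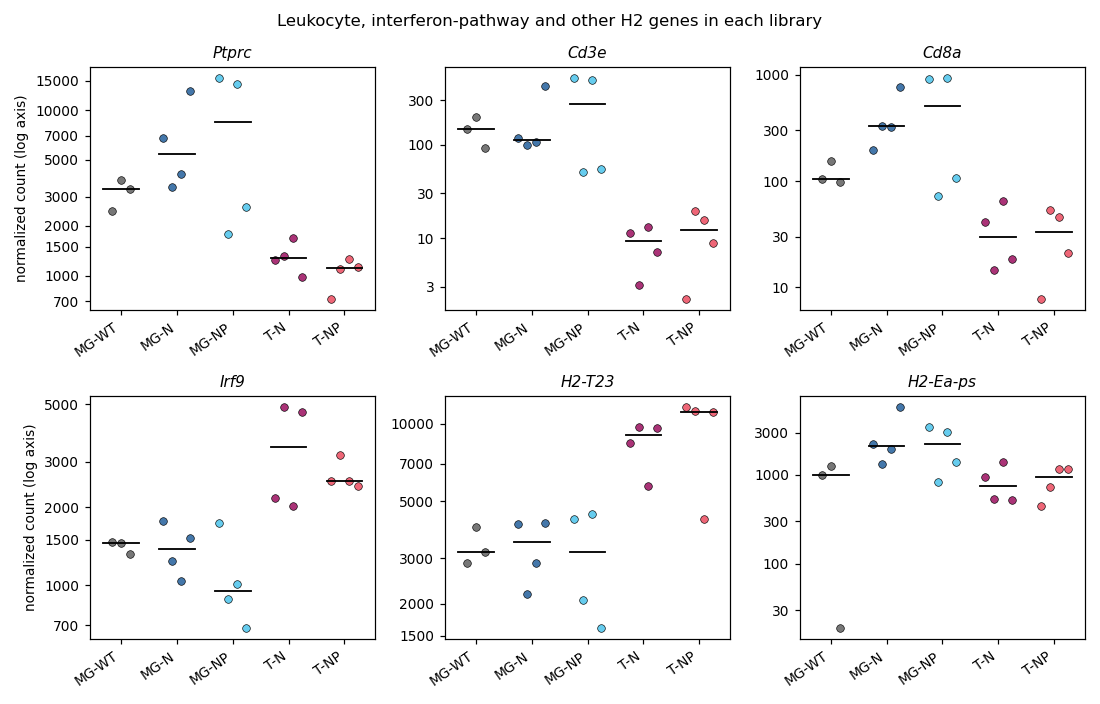
Normalized counts (log axis) of Ptprc, Cd3e, Cd8a, Irf9, H2-T23 and H2-Ea-ps in each library by group (points, with the median as a bar). Ptprc and Cd3e are lower in every tumor than in every MG-N gland, and H2-Ea-ps is at 19.12 in MG-WT replicate 3 alone.

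The H2 haplotype of the mice bears on the heavy chain values, since reads were aligned to a C57BL/6 reference (haplotype b) and reads from other alleles may align less well. H2-Ea-ps, the class II alpha chain gene that haplotype b does not transcribe, was at 992.4, 1265 and 19.12 normalized counts in the MG-WT glands, and ranged from 442.9 to 5766 across the other 16 libraries. MG-WT replicate 3 thus stood apart. It was also the highest MG-WT gland for 7 of the 9 class I genes, with H2-K1 at 20193 against 12170 and 9569. The part of haplotype in the H2-K1 and H2-D1 values was not tested. H2-Q6 and H2-Q7, near copies of each other, ranged widely within T-N, with H2-Q7 at 303.4, 1885, 418.1 and 1812 and H2-Q6 at 343.1, 1277, 432.2 and 1790, and reads may be split between them. Of 8 genes of this list tested in T-N against MG-N, H2-Eb2 (-4.70), H2-Ea-ps (-1.63) and H2-Eb1 (-1.47) were called lower (background 22.3%). In T-NP against MG-NP, 0 of the 7 tested were called by limma (background 24.0% lower). The median log2 change of the list was -0.46 in T-N and -0.76 in T-NP. The difference between the genotypes was not called for any gene of the list (interaction, limma).

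The 5 genes whose levels were most like the mean of the 9, by Pearson correlation of deviations from group means over 19 libraries and 15570 genes, were H2-K2 (0.96), Slc10a7 (0.949), H2-Q4 (0.938), H2-Q2 (0.932) and H2-Q5 (0.921). All but Slc10a7 are class I genes or gene fragments of the H2 region, and their reads can be shared with near copies such as H2-K1. H2-K2 had 34.08 to 320.6 normalized counts per library. Slc10a7, a member of a solute carrier family, ranged only from 473.9 to 853.6. Leaving out the 2 libraries farthest from the median kept the 5 values between 0.896 and 0.945.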

How the data were processed

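The signal deposited by the authors was 1 table of normalized counts, that is reads per gene divided by a DESeq2 size factor, for 46078 genes in 19 libraries. Reads were aligned to GRCm38 with TopHat2 (version 2.1.1) and Bowtie2. The counting tool, annotation and strand setting are not given in the sources used here. The labels name a total RNA kit and the paper an mRNA kit. Symbols came from a table of Ensembl identifiers (97.97% matched) and coordinates from GENCODE vM21, and reads were recovered from the step size (100% whole within 0.05 reads).

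The 2 groups compared entered a limma fit (version 3.58.1, R 4.3.3, trend) of values on the log2 scale after a pseudocount of 1, for genes with at least 10 normalized counts in as many libraries as the smaller group, with Benjamini-Hochberg adjustment over all genes. A fold change on this scale understates that of low genes. The interaction used 4 groups. Alternatives used edgeR (version 4.0.16) and DESeq2 (version 1.42.0) on recovered reads. Single genes and ratios were tested by exact permutation. The members, lists and tests were chosen with earlier results of these data known. Named genes were the 9 members, the ratio genes, the 2 largest calls of each pathway list in each tumor comparison, every regulator called, the haplotype genes, 4 leukocyte markers and the 5 most alike genes. Others were named where they were few or stood apart, after their values were seen. The limma step was tested on simulated data. 1 regulator of the lists is not reported here.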

Additional observations from a re-analysis of the deposited data

Results flagged for a closer look

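A value was set apart where its gap to the nearest library of its group of 4, divided by the range of the group on the log2 scale, was above Dixon's critical value. Over 60 groups examined (9 genes and 6 ratios in 4 groups), 5 values met this, and chance alone flags about 1 group in 20. H2-D1 in T-N replicate 1 was 10674 normalized counts, against 27929 to 28128 in the other 3 tumors, and this tumor was the lowest of its group for all 9 genes. Tap2 in T-NP replicate 4 was 2954, against 2389 to 2443. Nlrc5 in MG-N replicate 4, the MG-N gland with the highest Ptprc, was 3986, against 2014 to 2238. The log2 ratio of H2-K1 to B2m in MG-N replicate 4 was -1.39, against -0.722 to -0.682. The log2 ratio of H2-D1 to B2m in MG-NP replicate 3 was 0.668, against 0.255 to 0.275. No cause was tested for any of them.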

How the results depend on the processing

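Numbers of class I genes called were recomputed under each alternative. Against MG-WT, 6 were called in MG-N with no fold-change threshold, 2 with edgeR and 3 with DESeq2 (limma 1, and 1 to 3 with 1 library left out). Over all genes, calls were 5697 higher and 5544 lower with no threshold, 3728 and 3409 with edgeR, and 3812 and 3410 with DESeq2. In MG-NP against MG-WT, 0 became 1 with no threshold, 4 with the muscle covariate, 2 without MG-NP replicates 2 and 4 (an alternative chosen after seeing the data) and 0 to 1 with 1 library left out. Over all genes, calls were 4268 higher and 4585 lower with no threshold and 948 and 1304 with the covariate. Without the 2 replicates they were 3599 and 3109. In T-N against MG-WT, 0 became 1 with TMM scaling, edgeR, a single fit of 5 groups and the replicate block, 2 with DESeq2, and 0 to 3 with 1 library left out. Over all genes, calls were 3321 higher and 4437 lower with TMM scaling, 3615 and 4140 with edgeR, and 3486 and 5256 in the single fit. They were 2918 and 4112 with the replicate block and 3693 and 4350 with DESeq2. In T-NP against MG-WT, 2 became 5 with no threshold (5956 higher and 6749 lower over all genes) and 1 in the single fit (3587 and 5356). In T-N against MG-N, 1 became 0 with edgeR (2429 higher and 3789 lower over all genes) and 0 to 1 with 1 library left out. In T-NP against MG-NP, 1 became 5 with the muscle covariate and 2 without MG-NP replicates 2 and 4. Over all genes, calls were 1662 higher and 2674 lower with the covariate, and 2515 and 4556 without the 2 replicates. The counts for MG-NP against MG-N, T-NP against T-N and the interaction were 0 under every alternative run.

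The 5 calls of single genes had 87 values under alternatives, of which 77 kept the call and 10 lost it, 8 of these for Nlrc5 in T-N against MG-N. Values with no call in limma gained one in 29 cases with the direction kept, and in 2 more with it turned. A direction was counted as turned only where a call was involved, which held for 2, both with the muscle covariate: Nlrc5 in MG-NP against MG-WT (2.34) and H2-K1 in T-NP against MG-NP (-1.53). No ratio and no single-gene permutation test passed adjustment under any alternative, including pseudocounts of 0.5 and 5 and T-NP replicates 1 and 2 averaged. With groups this small, even the smallest p that the exact test allows cannot pass adjustment unless many tests reach it together. The permutation tests therefore cannot show whether the ratios and single genes depend on the processing.

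Same-numbered libraries did not deviate together (correlations from -0.177 to 0.234 over 8 comparisons), so the numbers were not taken as pairs. With the replicate block, Nlrc5 was called lower in T-N against MG-WT (log2 -1.58, adjusted p = 0.0334, limma), a fit that drops T-N replicate 4, and no other count of calls changed. TMM scaling moved the median log2 change of all genes by 0.1025 in T-NP against MG-NP, and edgeR by 0.1217 in T-N against MG-WT. Nlrc5 stayed called in the first (-1.77). T-NP replicates 1 and 2 differed far beyond counting noise (chi-square of 55.3 per degree of freedom, against 79.1 to 798 for the other pairs of a group). The composition of the glands, the mixed genotype of MG-N, haplotypes and the strain of MG-WT limit these comparisons.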
